A study of Mus musculus with 12 samples.

Results

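The subject here is the proteasome, read through 49 genes whose symbols start with Psma, Psmb, Psmc, Psmd, Psme, Psmf or Psmg followed by a digit, out of 18194 named genes on the array. Where several probe sets named 1 gene, the probe set with the highest mean over the 12 arrays stood for it. That choice covered 103 probe sets, since 22 of the genes had 1 probe set and 27 had several. Of the 49, 46 reached a log2 level of 5 on at least 2 arrays and were tested, among 9930 genes tested in all; Psma8, Psmb8 and Psmb11 did not. Psmc3ip, a cofactor of meiotic recombination, and Psme3ip1 carry the letters of the rule but are not proteasome subunits, and are kept apart by name below. Psme2, the partner of Psme1, shared its probe set with a second symbol and was therefore not named.

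The proteasome is the protease complex that destroys proteins tagged with ubiquitin. Its barrel, the core particle, is built of alpha subunits (Psma genes), which form the gates, and beta subunits (Psmb genes), which include the proteolytic sites. The regulatory particle caps the barrel: its base holds a ring of ATPases (Psmc genes) that unfold the substrate, and its lid (Psmd genes) removes the ubiquitin. Dedicated chaperones assemble both particles, and alternative activators (Psme genes) can take the place of the cap. In early embryos, the removal of maternal proteins is known to use this system.

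The embryos were of ICR mice, and the untreated controls were 2-cell embryos of day 1.5, 4- to 8-cell embryos of day 2.5, and morulae and blastocysts of day 3.5. A further group was taken at day 2.5 in the presence of 20 µM U0126, which inhibits the kinases that activate ERK, and stood arrested at 4 cells. The last groups had been released from that arrest and were taken at day 3.5 (8 cells) and day 4.5 (morula to blastocyst). Each group had 2 arrays (Affymetrix Mouse Genome 430 2.0), and 0.1 µg of total RNA went into the 2-cycle labelling of each, and the labels do not give the number of embryos pooled. The amount of RNA per array was fixed, so a level is a share of the RNA loaded, and more of a transcript per embryo cannot be told apart from less of the other transcripts.

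Between both arrays of each group Pearson's r lay between 0.955 and 0.980 over the tested genes (0.516 for the least alike pair of the series), and the small number of arrays limits the precision. Replicates 1 and 2 of a group are called its first and second array. The series text gives 2 independent experiments, but no label ties an array to its own culture or animals, so the p-values measure the spread between these arrays, which may be technical. Markers followed the labelled stages: the log2 of the summed intensity of Cdx2 and Krt8, which mark the trophectoderm, was 4.52 and 4.01 at control day 1.5 and 13.92 and 13.10 at control day 3.5 (first and second array). Of 7 cumulus cell genes and 5 sperm genes, none reached a level of 5 on 2 arrays. Of 4 oviduct genes 1 did, Ovgp1, with 5.75, 5.37 and 6.35 on the second arrays of control day 1.5, control day 2.5 and U0126, and of 8 blood and immune cell genes 1 did, Cd68, with at most 7.29; Ptprc stayed between 2.71 and 2.94. The part of such cells in the results was not tested. Replicate 1 stood above replicate 2 in 25 to 37 of the 46 genes in every group, with a median difference of 0.08 to 0.34 over these genes beside 0.03 to 0.09 over all genes.

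Promoters were read for 39 of the 47 proteasome genes in RefSeq's table (GRCm38.p6), as the 250 bases before the gene start, and were searched on both strands for short motifs. The sequences of 5 genes are shown as examples: Psmb6, Psma7 and Psmc1, whose levels followed the common pattern closely, and Psmd11 and Psme4, whose levels did not. Capitals mark the matches to CCGGAAG, the core of sites for ETS factors, whose reverse complement is CTTCCGG, to CCAAT, the box of NF-Y, and to TGACNNNGC, the core of the antioxidant response element.
Psmb6 (chr11:70525107-70525356, plus strand): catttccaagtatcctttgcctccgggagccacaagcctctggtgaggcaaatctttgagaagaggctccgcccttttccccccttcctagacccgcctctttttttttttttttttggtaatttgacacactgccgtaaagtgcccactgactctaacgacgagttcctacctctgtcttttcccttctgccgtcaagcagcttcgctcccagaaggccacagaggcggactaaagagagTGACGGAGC
Psma7 (chr2:180042465-180042714, minus strand): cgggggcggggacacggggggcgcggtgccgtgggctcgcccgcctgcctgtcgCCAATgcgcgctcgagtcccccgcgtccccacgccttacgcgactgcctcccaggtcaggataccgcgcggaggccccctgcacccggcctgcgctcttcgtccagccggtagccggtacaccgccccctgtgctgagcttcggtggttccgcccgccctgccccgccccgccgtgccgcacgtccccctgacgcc
Psmc1 (chr12:100109952-100110201, plus strand): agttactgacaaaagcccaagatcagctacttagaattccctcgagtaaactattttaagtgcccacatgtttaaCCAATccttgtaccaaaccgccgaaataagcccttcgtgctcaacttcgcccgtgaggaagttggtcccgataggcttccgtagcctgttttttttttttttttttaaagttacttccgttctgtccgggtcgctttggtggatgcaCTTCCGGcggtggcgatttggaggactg
Psmd11 (chr11:80428365-80428614, plus strand): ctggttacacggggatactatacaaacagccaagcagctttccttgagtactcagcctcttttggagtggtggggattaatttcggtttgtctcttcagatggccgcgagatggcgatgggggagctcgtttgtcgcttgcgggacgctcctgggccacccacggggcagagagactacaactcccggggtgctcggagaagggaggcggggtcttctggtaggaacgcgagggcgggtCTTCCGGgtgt
Psme4 (chr11:30771525-30771774, plus strand): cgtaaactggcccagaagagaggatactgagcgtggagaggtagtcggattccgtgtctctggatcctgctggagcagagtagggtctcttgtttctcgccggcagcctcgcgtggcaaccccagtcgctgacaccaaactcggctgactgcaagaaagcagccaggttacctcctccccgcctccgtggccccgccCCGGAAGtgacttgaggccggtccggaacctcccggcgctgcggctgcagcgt
CCGGAAG was present in 12 of the 39 promoters (30.8%), against 17.1% of the promoters of all tested genes and 7.83% of all promoters in the table. The regulatory particle held it in 8 of 14 (57.1%) and the core particle in 1 of 11 (9.09%). The regulatory genes with a match were Psmc1, Psmc2, Psmc6, Psmd2, Psmd4, Psmd6, Psmd11 and Psmd12, and the core gene was Psma6. Outside the particles it was found in Psme3, Psme4 and Psmg1. Relative to the gene start the matches lay between positions -132 (Psma6) and -11 (Psmd11), and Psmc2 had 2 of them. CCAAT was in 6 of 11 core promoters (54.5%) and 4 of 14 regulatory promoters (28.6%), with 41.5% among tested genes. TGACNNNGC (12.8% of the 39, 14.1% of tested genes), CACGTG, which reads the same on both strands (10.3% and 10.5%), and TATAAA (10.3% and 7.54%) were also searched. These are counts of letters in a window and were not tested.

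From 2 cells to 4 to 8 cells, transcripts of both particles rose together. Of 46 genes, 32 were higher and 3 lower at control day 2.5 than at control day 1.5 (limma, Benjamini-Hochberg adjusted p under 0.05), whereas 28.0% of all tested genes were called higher and 27.4% lower, or 55.4% in either direction. The core particle had 13 of 14 genes higher, with a median difference of 1.59 on the log2 scale (3.01-fold). In the regulatory particle 14 of 17 were higher, with a median of 1.87 (3.64-fold). The median over all tested genes was 0.09. Arrays of the 2 groups did not overlap in 39 of 44 proteasome genes, against 77.1% of all genes, so that separation by itself is common at this step.

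**Figure D1:**
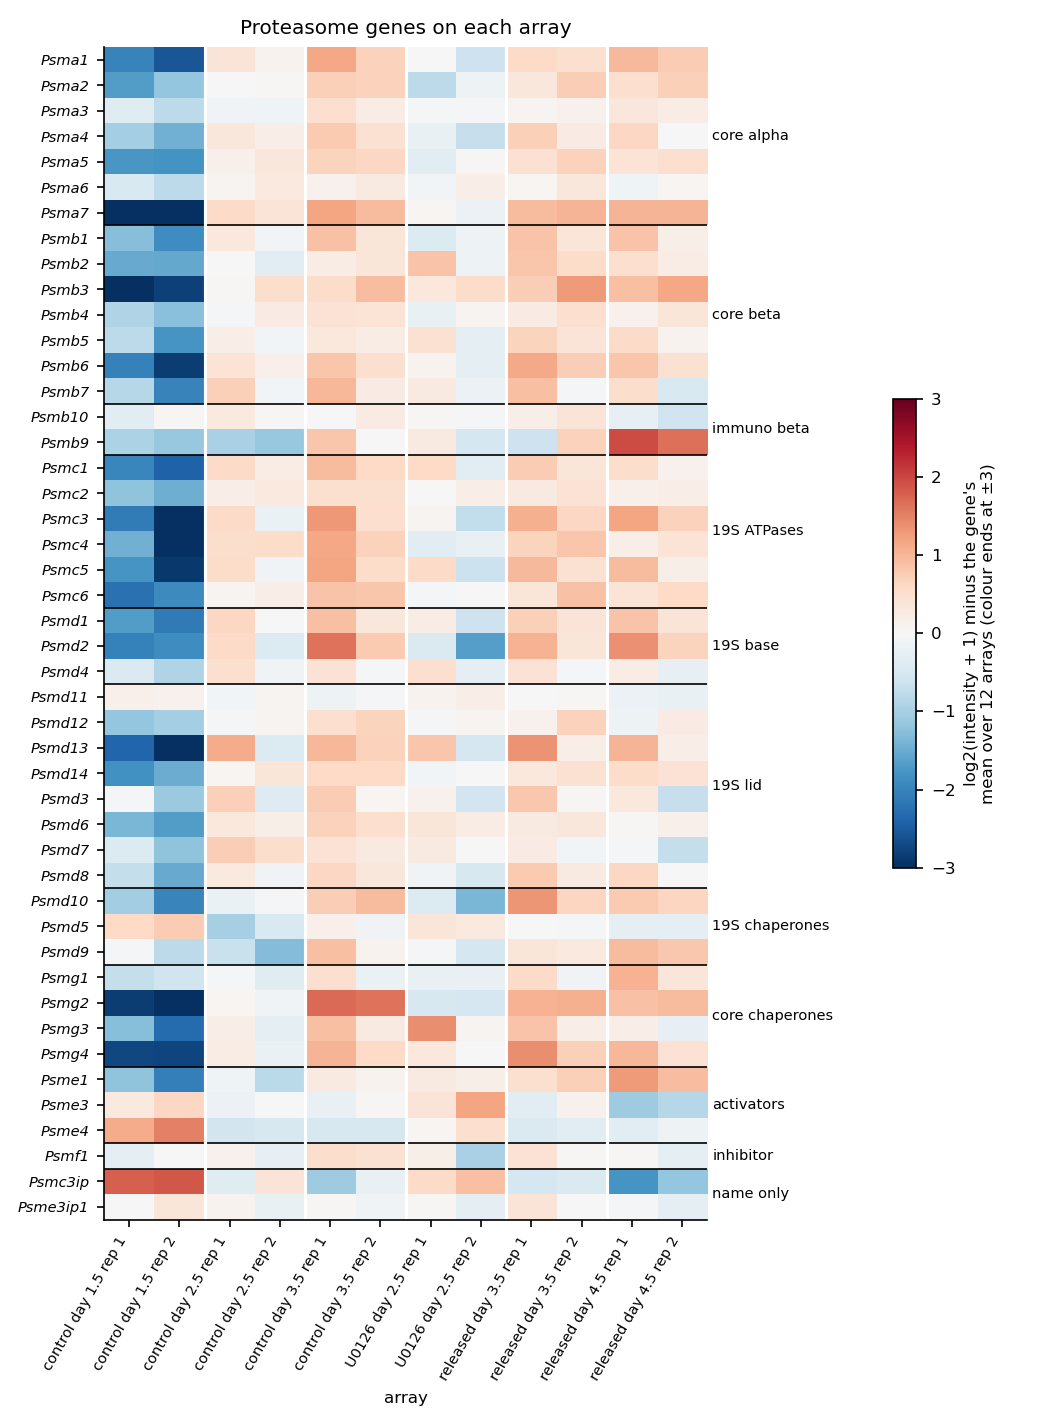
Each row is 1 of the 46 tested genes and each column 1 of the 12 arrays; colour is log2(intensity + 1) minus the gene's mean over the 12 arrays, with blue for lower and red for higher and the scale ended at 3 in each direction. Most core and regulatory rows are blue on both control day 1.5 arrays and pale or red on the others, while Psme4, Psmd5 and Psmc3ip run the other way.

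Among alpha subunits, Psma7 moved most. Its log2 level was 7.11 and 7.08 on the day 1.5 arrays and 11.17 and 10.98 on the day 2.5 arrays, a difference of 3.98 ± 0.24 (SE, n = 2 per group; adjusted p = 5.04e-07), or 15.7-fold. On all other arrays Psma7 stood at 10.40 or above, far from the 2-cell arrays. Psma1 rose by 2.54 ± 0.31 (adjusted p = 6.09e-05) and Psma5 by 2.03 ± 0.24 (adjusted p = 5.11e-05). Psma2 (1.43 ± 0.30) and Psma4 (1.50 ± 0.32) rose less. Psma6 was already at 13.12 and 12.79 in 2-cell embryos and rose by 0.80 ± 0.26 (adjusted p = 0.0205), a call lost without the second control array of day 1.5 (adjusted p = 0.100) or the second control array of day 2.5 (adjusted p = 0.114). Psma3 did not pass (0.47, 95% interval -0.09 to 1.02, adjusted p = 0.138).

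Every beta subunit of the constitutive core passed. The catalytic subunit Psmb6, which carries the caspase-like site, had levels of 9.67 and 8.86 at day 1.5 and 12.11 and 11.86 at day 2.5. The rise was 2.72 ± 0.33 (adjusted p = 5.31e-05, 6.60-fold), and no array of a later group came near the 2-cell values. Psmb5, with the chymotrypsin-like site, stood at 11.13 and 10.13, then at 12.11 and 11.83 (1.34 ± 0.37, adjusted p = 0.0109). Psmb7, with the trypsin-like site, went from 9.03 and 7.87 to 10.59 and 9.81 (1.75 ± 0.52, adjusted p = 0.0138). These 2 calls rested on single arrays: without the second control array of day 1.5 the adjusted p was 0.0996 for Psmb5 and 0.130 for Psmb7, and without the first control array of day 2.5 it was 0.0668 and 0.104. Among the structural beta subunits Psmb3 rose most, from 8.14 and 9.49 to 12.32 and 12.83 (3.76 ± 0.42, adjusted p = 2.80e-05). Psmb4, at 12.41 and 12.05 in 2-cell embryos, moved least of the beta subunits (1.18 ± 0.26, adjusted p = 0.00283).

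All 6 ATPases of the regulatory particle rose, with a median difference of 2.57. Psmc4 went from 10.41 and 8.82 to 12.38 and 12.42 (2.79 ± 0.43, adjusted p = 2.65e-04). Psmc1 went from 8.92 and 8.47 to 11.46 and 11.11 (2.59 ± 0.35, adjusted p = 1.17e-04), and Psmc2 changed least (1.58 ± 0.23, adjusted p = 2.15e-04). In the base, Psmd2, a scaffold that docks ubiquitin carriers, rose by 2.04 ± 0.50 (adjusted p = 0.00499; adjusted p = 0.0510 without the first control array of day 2.5). The ubiquitin receptor Psmd4 did not pass (0.86 ± 0.37, adjusted p = 0.0708), although it did once the replicate number entered the fit as a block (adjusted p = 0.00401).

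The lid was less uniform, with 6 of 8 genes higher. Psmd13 rose by 3.10 ± 0.61 (adjusted p = 0.00134), from 6.56 and 5.81 to 10.04 and 8.52. Psmd14, the deubiquitinase of the lid, went from a mean of 9.99 ± 0.22 (SD, n = 2) to 11.85 ± 0.20, with no overlap (1.87 ± 0.24, adjusted p = 8.80e-05). Its partner Psmd7 rose by 1.44 ± 0.33 (adjusted p = 0.00370), but a second, dimmer probe set of Psmd7 had a difference of -0.37, and the mean of the probe sets did not pass (0.42, adjusted p = 0.0858). Psmd3 did not pass (0.75, 95% interval -0.44 to 1.93, adjusted p = 0.262; adjusted p = 0.0124 with the block). Psmd11, a lid scaffold that clamps the cap to the barrel, was the exception among the particle genes. Its levels were 12.25 and 12.23 at day 1.5 and 12.01 and 12.18 at day 2.5 (-0.14, 95% interval -0.64 to 0.36, adjusted p = 0.620), and over all 12 arrays it ranged only from 11.88 to 12.30. Its 3 other probe sets above the level had differences of 0.37, 0.41 and 0.21 at this step.

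**Figure D2:**
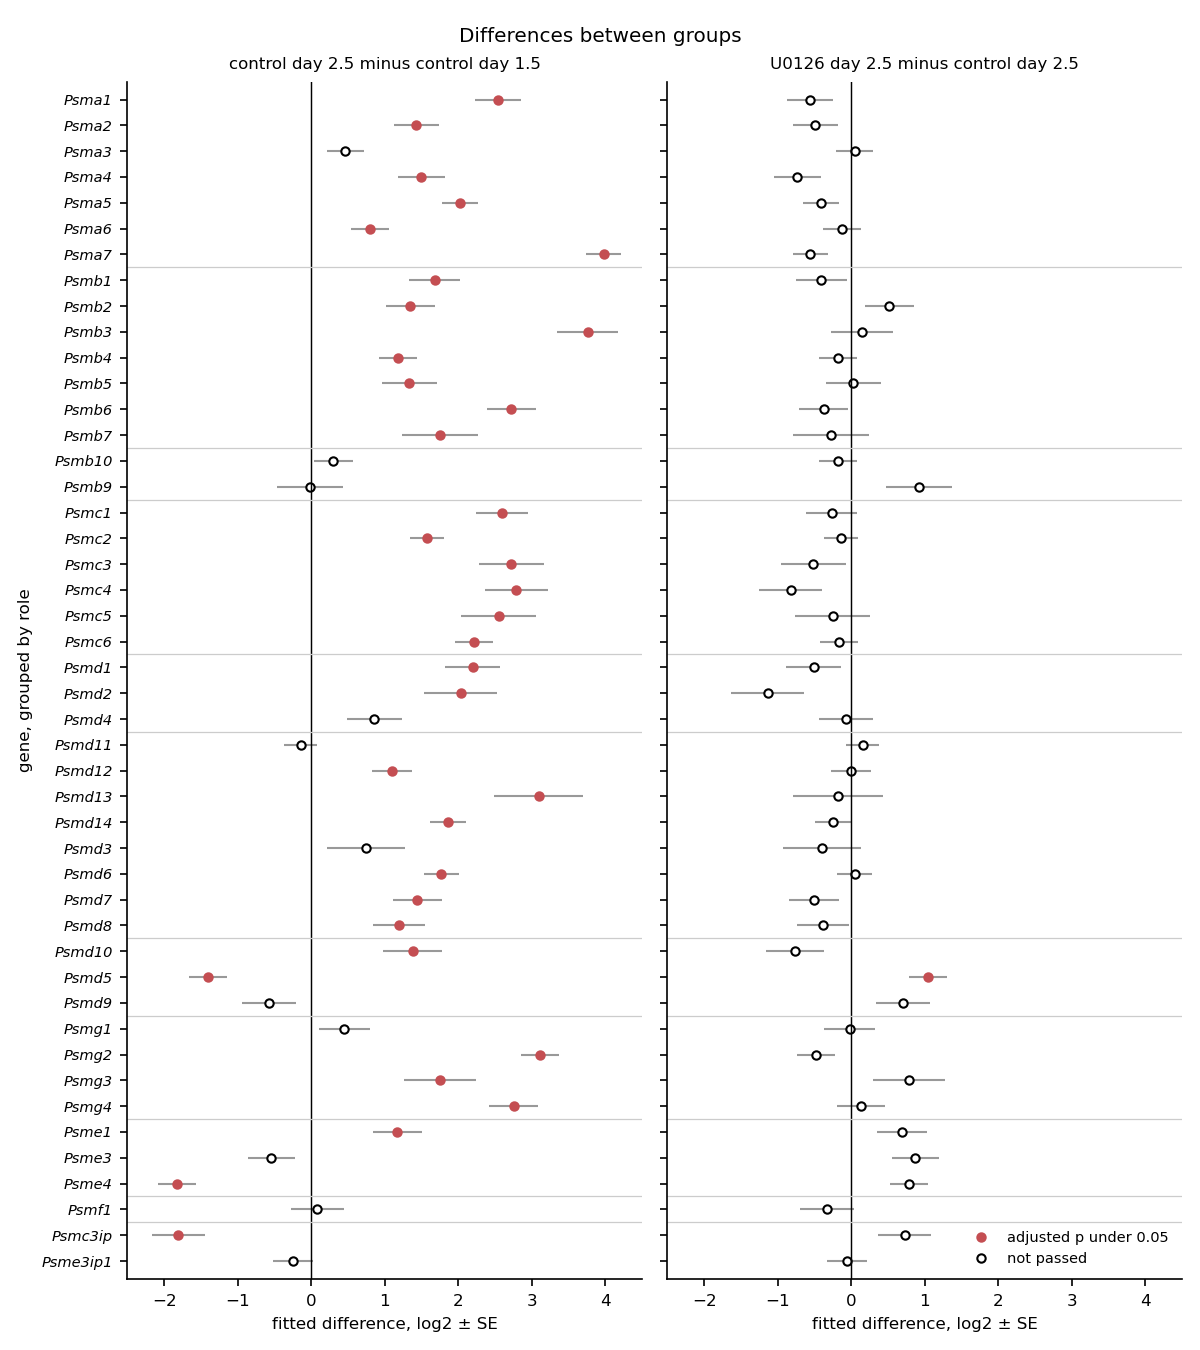
Points are the fitted log2 differences of the 46 tested genes, grouped by role, with bars of 1 SE; the left panel gives control day 2.5 minus control day 1.5 and the right panel U0126 day 2.5 minus control day 2.5, and filled points passed limma's test at an adjusted p under 0.05. On the left 32 genes lie above 0 and 3 below among the filled points, and on the right Psmd5 is the single filled point.

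Chaperones of the core particle rose with it in 3 of 4 cases. Psmg2, partner in a dimer that seeds the alpha ring, went from 6.08 and 5.53 to 9.0 and 8.83, a difference of 3.11 ± 0.25 (adjusted p = 3.77e-06). Psmg4, of the second chaperone dimer, was at 2.84 and 2.81 in 2-cell embryos, near background, and at 5.79 and 5.35 at day 2.5. Its fitted rise was 2.75 ± 0.33 (adjusted p = 4.60e-05), and counted from a level of 5 it was at least 0.57. Psmg3 rose by 1.76 ± 0.49 (adjusted p = 0.0106; adjusted p = 0.101 without the second control array of day 1.5 and 0.0699 without the first control array of day 2.5). Psmg1 did not pass (0.45 ± 0.35, adjusted p = 0.301).

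The chaperones of the ATPase ring went separate ways. Psmd5 fell, from 10.33 and 10.48 to 8.74 and 9.27 (-1.40 ± 0.26, adjusted p = 8.93e-04). Psmd10, also called gankyrin, rose by 1.38 ± 0.40 (adjusted p = 0.0124), but not without the second control array of day 1.5 (adjusted p = 0.113) or the second control array of day 2.5 (adjusted p = 0.0588). Psmd9 did not pass (-0.57 ± 0.37, adjusted p = 0.216).

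Activators also differed from each other. Psme4, a nuclear activator known for its role in spermatogenesis and histone turnover, was at 12.66 and 13.04 in 2-cell embryos and at 10.98 and 11.06 at day 2.5. It fell by 1.83 ± 0.26 on the log2 scale (adjusted p = 1.51e-04), or 3.56-fold. In other probe sets of Psme4 the differences were -2.19 and -2.34 for the brighter pair and 0.07 and 0.31 for the dimmer pair. Psme1, a subunit of the interferon-inducible activator, rose from 6.43 and 5.60 to 7.53 and 6.85 (1.17 ± 0.34, adjusted p = 0.0125; adjusted p = 0.106 without the second control array of day 1.5 and 0.115 without the first control array of day 2.5). Psme3, the nuclear member of that family, did not pass (-0.54 ± 0.32, adjusted p = 0.173). Its second probe set had a difference of -2.48, and the mean of its probe sets passed as lower (-0.90, adjusted p = 0.00736). Psmf1, an inhibitor of the core particle, had a difference of 0.09 ± 0.37 (adjusted p = 0.861).

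Subunits of specialised proteasomes stayed near background at this step. The immunoproteasome subunit Psmb9 stood at 3.70 and 3.51 at day 1.5 and at 3.67 and 3.52 at day 2.5 (-0.01 ± 0.45, adjusted p = 0.982). Psmb10 lay between 4.22 and 5.21 on all 12 arrays, and Psmb8 between 3.26 and 3.78. Psma8, the alpha subunit of germ cells, lay between 3.19 and 4.75, and Psmb11, the subunit of the thymic cortex, between 2.79 and 3.65. Of the 2 genes that share only the name, Psmc3ip fell by 1.81 ± 0.36 (adjusted p = 0.00149), from 11.69 and 11.77 to 9.55 and 10.29, and Psme3ip1 did not pass (-0.25 ± 0.27).

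**Figure D3:**
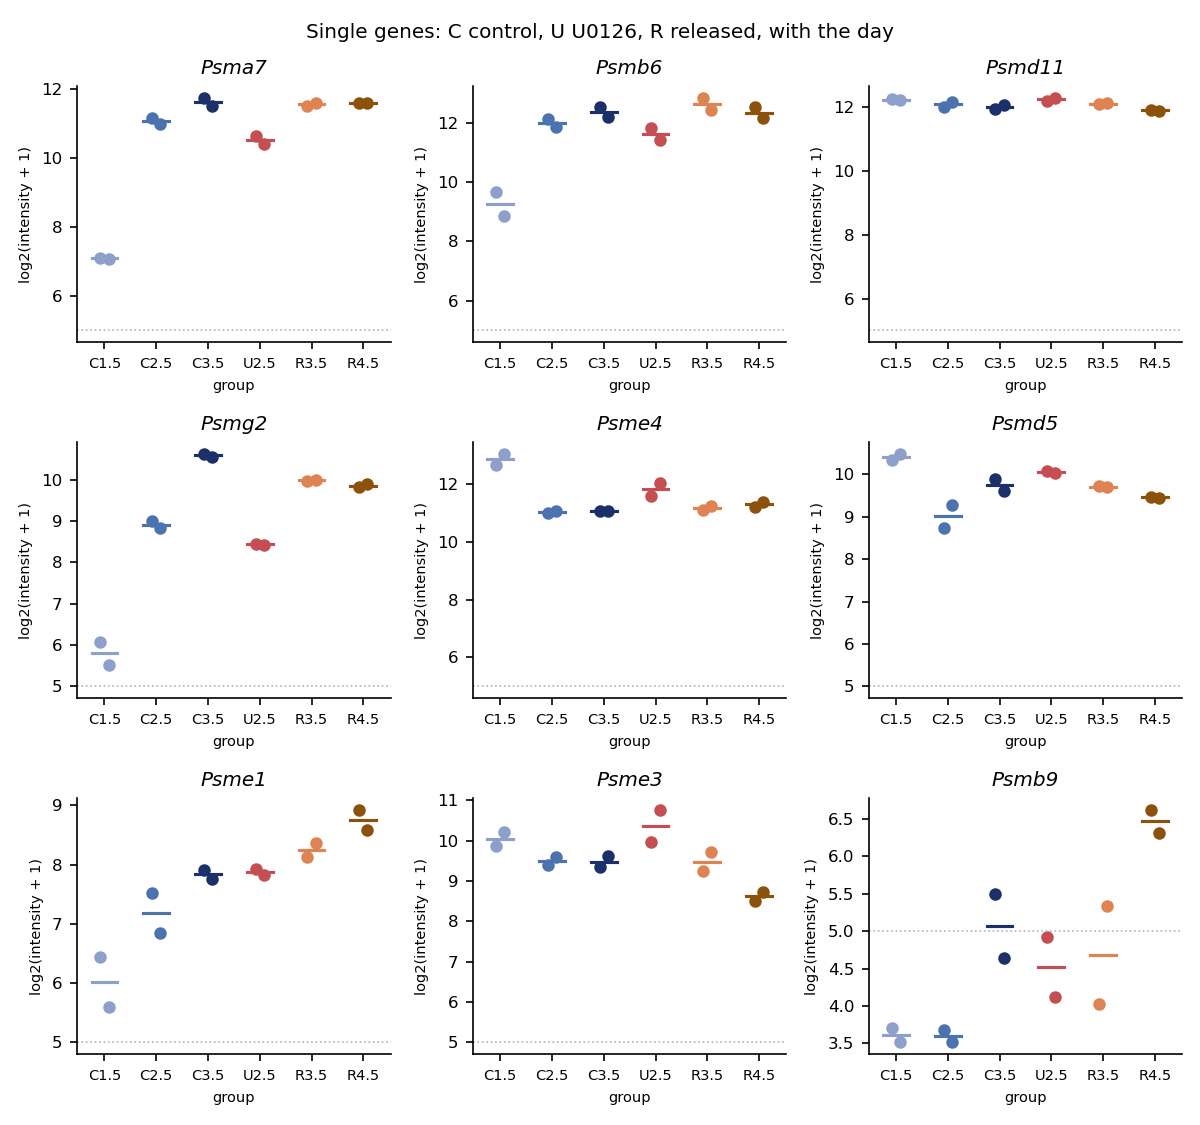
Log2(intensity + 1) of 9 genes on each array (points) with the group mean (bar); C is control, U is U0126 and R is released, followed by the day, the dotted line marks the level of 5, and each panel has its own vertical scale. Psma7, Psmb6 and Psmg2 are lowest at control day 1.5, Psme4 and Psmd5 are highest there, Psmd11 stays between 11.88 and 12.30, and Psmb9 exceeds 6 only at released day 4.5.

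In the next step, to morula and blastocyst, few proteasome genes passed the test. At control day 3.5, 3 of 46 genes were higher than at control day 2.5 and 0 lower by limma, against 13.4% and 8.28% of all genes (21.6% in either direction). None of the 3 belongs to the constitutive particles. Arrays did not overlap in 32 of 44 proteasome genes, against 67.3% of all genes. At an unadjusted p under 0.05, 10 of 44 were higher and 0 lower, against 35.4% of all genes in either direction; the core particle had 2 of 14 higher (Psma2, Psma7) and the regulatory particle 2 of 17 (Psmc6, Psmd2). The differences were nevertheless positive in 14 of 14 core and 15 of 17 regulatory genes, with medians of 0.42 and 0.38 beside 0.09 for all genes. After median centring of the arrays, which moved the median of all genes to -0.12, 12 core and 14 regulatory differences were positive.

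Psmg2 rose again, from 9.0 and 8.83 to 10.63 and 10.56 (1.68 ± 0.25, adjusted p = 0.00188), so that its highest level was at control day 3.5. Psmd9 rose by 1.49 ± 0.37 (adjusted p = 0.0174), but a second probe set had a difference of -1.18, the mean of the probe sets differed by 0.08, and the call was lost without the second control array of day 2.5 (adjusted p = 0.122) or the first control array of day 3.5 (adjusted p = 0.160). Psmb9 went from 3.67 and 3.52 to 5.49 and 4.64 (1.47 ± 0.45, adjusted p = 0.0404), which is at least 0.07 when counted from a level of 5. Here too the call was lost without the first control array of day 2.5 (adjusted p = 0.115), the second control array of day 2.5 (adjusted p = 0.152) or the first control array of day 3.5 (adjusted p = 0.278), after median centring (adjusted p = 0.0573) and with a pseudocount of 16 (adjusted p = 0.0725). Beside it, Cd74, an antigen presentation gene taken here as an immune cell marker, read 3.69 and 3.20 at day 2.5 and 5.34 and 4.60 at day 3.5. Of 8 blood and immune cell genes 1 (Cd68) reached the level, and the log2 of their summed intensity went from 6.23 and 6.05 to 6.78 and 6.39; their part in the result was not tested. With the replicate number as block 9 of 46 genes were higher, while 31.2% of all genes were called in either direction, the further ones being Psma1 (adjusted p = 0.0427), Psmc3 (0.0299), Psmc6 (0.0336), Psmd2 (0.0244), Psmd5 (0.0399) and Psmg4 (0.0231). The count was 1 without the second control array of day 2.5 and 1 without the first control array of day 3.5.

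At matched day, a single proteasome gene was called between U0126-treated and control embryos. The treated embryos were arrested, so the drug, the arrest and any difference in cell stage go together here. The part of each was not tested. Under U0126 at day 2.5, 1 of 46 genes was higher and 0 lower than in controls of the same day by limma, whereas 9.21% of all genes were higher and 4.72% lower (13.9% in either direction). The 1 gene was the base chaperone Psmd5, at 10.08 and 10.02 in arrested embryos against 8.74 and 9.27 in controls (1.05 ± 0.26, adjusted p = 0.0251, 2.06-fold). Its level in arrested embryos lay between those of the day 1.5 and day 2.5 controls. The call was lost without the first control array of day 2.5 (adjusted p = 0.182), without either U0126 array (adjusted p = 0.0851 and 0.0573) and after median centring (0.84, adjusted p = 0.0714). Arrays did not overlap in 23 of 44 proteasome genes, against 53.5% of all genes. Of the 6 groups, U0126 had the lowest r between its arrays (0.955), while the fit uses a spread pooled over all groups.

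Core genes had negative differences in 10 of 14 and regulatory genes in 15 of 17, with medians of -0.32 and -0.25 where the median of all genes was 0.11. None of these 31 passed in limma. At an unadjusted p under 0.05 Psma4 and Psma7 of the core and Psmd2 of the base were lower, and 6 of 44 proteasome genes differed in either direction, against 28.1% of all genes. With the mean of all probe sets the ATPase gene Psmc6 was lower (-0.98, adjusted p = 0.0226); its brightest probe set differed by -0.17 and its 2 others by -1.35 and -1.42. Median centring, which moved the median of all genes to -0.09, made 13 of 14 and 17 of 17 negative, and quantile normalization 9 of 14 and 12 of 17. The intervals were wide. Psmd2, with the most negative difference, stood at 9.75 and 8.53 under U0126 against 10.76 and 9.79 in controls (-1.13, 95% interval -2.23 to -0.04, adjusted p = 0.164), and Psma4 at 10.97 and 10.49 against 11.53 and 11.39 (-0.73, adjusted p = 0.160). For the catalytic subunits the differences were -0.37 (95% interval -1.11 to 0.36) for Psmb6, 0.03 (-0.80 to 0.86) for Psmb5 and -0.27 (-1.42 to 0.87) for Psmb7.

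The chosen probe sets of the activators stood on the other side. Psme4 read 11.59 and 12.03 under U0126 against 10.98 and 11.06 (0.79 ± 0.26, adjusted p = 0.0697), Psme3 9.98 and 10.77 against 9.40 and 9.60 (0.87 ± 0.32, adjusted p = 0.0977), and Psme1 7.93 and 7.82 against 7.53 and 6.85 (0.69 ± 0.34, adjusted p = 0.215). All 3 were higher on both treated arrays than on both control arrays, where 53.5% of all genes did not overlap, and none passed. The second probe set of Psme3 differed by 0.03. In other probe sets of Psme4 the differences were 0.85 and 1.01 for the brighter pair and -0.28 and 0.18 for the dimmer pair. With the replicate number as block 5 of 46 genes passed, against 20.8% of all genes: Psmd5, Psme3 (adjusted p = 0.0238) and Psme4 (adjusted p = 0.0277) higher, and Psma4 (adjusted p = 0.0341) and Psmd2 (adjusted p = 0.0308) lower. Of the remaining regulators, Psmf1 (-0.33), Psmd9 (0.70), Psmd10 (-0.76), Psmg1 (-0.02), Psmg2 (-0.48), Psmg3 (0.78), Psmg4 (0.14), Psmb9 (0.92) and Psmb10 (-0.18) did not pass, nor did Psmd14 (-0.25) or Psmd4 (-0.07). The macrophage gene Cd68 read 7.29 and 6.50 under U0126 against 4.62 and 4.31 in controls. Cd74 went the other way, at 2.95 and 2.94 against 3.69 and 3.20, and all genes of the immune list but Cd68 stayed under the level of 5 on these arrays. The whole list, a sum in which Cd68 weighed most, stood at 7.64 and 7.09 against 6.23 and 6.05. The part of immune cells in these differences was not tested.

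Measured from the 2-cell stage instead, arrested embryos had higher levels of most particle genes. In U0126 day 2.5 embryos 28 of 46 genes were higher and 2 lower than at control day 1.5, against 28.1% and 22.0% of all genes (50.1% in either direction). Arrays did not overlap in 37 of 44 proteasome genes (71.2% of all genes). The core particle had 12 of 14 higher (median 1.42, 2.68-fold) and the regulatory particle 12 of 17 (median 1.62, 3.07-fold). Under the replicate block 32 of the 46 genes were higher and 2 lower, while 5742 of the 9930 tested genes were called in either direction. This comparison and the control step share the day 1.5 arrays, so their values are given side by side only: Psmb3 differed by 3.91 here and 3.76 there, Psma7 by 3.42 and 3.98, Psmd13 by 2.92 and 3.10, and Psmg2 by 2.63 and 3.11. Psme4 was lower than at day 1.5 by 1.04 ± 0.26 on the log2 scale here (-1.04, adjusted p = 0.00664), although the mean of its probe sets did not pass (-0.43, adjusted p = 0.120). Psmd5 did not pass (-0.36, adjusted p = 0.274). Psmc3ip was also lower (-1.08 ± 0.36, adjusted p = 0.0287; adjusted p = 0.0747 without the first control array of day 1.5, 0.102 without the second control array of day 1.5 and 0.129 without the first U0126 array).

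On release, 5 of 14 core genes and 1 of 17 regulatory genes were called higher, although the median differences of both particles were close. Released day 3.5 embryos, at 8 cells, had 8 of 46 genes higher and 1 lower than the arrested embryos, beside 13.7% and 14.5% of all genes (28.2% in either direction). Arrays did not overlap in 30 of 44 proteasome genes (63.1% of all genes). Differences were positive in 14 of 14 core and 15 of 17 regulatory genes, with medians of 0.65 and 0.61, and the median of all genes was -0.02. The higher core genes were Psma7 (1.05 ± 0.24, adjusted p = 0.00811), Psmb6 (1.03 ± 0.33, adjusted p = 0.0404), Psma2 (1.01 ± 0.30, adjusted p = 0.0303), Psma4 (0.94 ± 0.32, adjusted p = 0.0484) and Psma5 (0.72 ± 0.24, adjusted p = 0.0493). Psma7 read 10.64 and 10.40 in arrested and 11.53 and 11.61 in released embryos.

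The base subunit Psmd2 went from 9.75 and 8.53 to 11.25 and 10.55 (1.76 ± 0.50, adjusted p = 0.0237). The chaperone Psmd10 went from 6.91 and 5.96 to 8.64 and 7.98 (1.88 ± 0.40, adjusted p = 0.00613), and Psmg2 from 8.44 and 8.43 to 9.98 and 10.00 (1.55 ± 0.25, adjusted p = 0.00165). These 3 genes were the largest rises among calls without overlap, so the separation of their arrays came with that choice. Arrays of 63.1% of all genes did not overlap here. The lower gene was Psmc3ip (-1.22 ± 0.36, adjusted p = 0.0287), and Psme3 and Psme4 had differences of -0.89 (adjusted p = 0.0583) and -0.65 (adjusted p = 0.0867).

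Most of these calls depended on single arrays. Without the second U0126 array, Psmd2 had adjusted p = 0.152, Psma4 0.212, Psmb6 0.167 and Psmc3ip 0.119. Without the first released array of day 3.5, Psmd2 had adjusted p = 0.139, Psmd10 0.0521, Psma2 0.0530, Psma4 0.244, Psma5 0.0955, Psmb6 0.197 and Psmc3ip 0.111. Without the second released array of day 3.5 it was 0.0525 for Psma7, 0.172 for Psma2, 0.0685 for Psma4, 0.218 for Psma5, 0.0709 for Psmb6 and 0.0943 for Psmc3ip, and without the first U0126 array it was 0.163 for Psma2, 0.203 for Psma5 and 0.0512 for Psmb6. Psmg2 passed in every one of these fits. In the other direction, the replicate number as block raised the count to 20 of 46, with 17 higher and 3 lower, and the share of all genes called to 37.6%. The genes it added on the higher side were Psma1, Psmb1, Psmc3, Psmc5, Psmc6, Psmd1, Psmd3, Psmd8 and Psmg4, with adjusted p-values from 0.00266 (Psmc3) to 0.0400 (Psmd3), and on the lower side Psme3 (0.0123) and Psme4 (0.0367). With the mean of all probe sets Psma1 (0.70, adjusted p = 0.0302), Psmb3 (0.90, adjusted p = 0.0108) and Psmc6 (1.24, adjusted p = 0.00359) were higher too.

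Set against control day 2.5 embryos, which are given as 4 to 8 cells, released day 3.5 embryos had few calls. By Cdx2 and Krt8 the released embryos stood nearer to control day 3.5 than to control day 2.5, as given above. Here 2 of 46 genes were higher and 0 lower, against 8.61% and 4.05% of all genes (12.7% in either direction). At an unadjusted p under 0.05, 8 of 44 proteasome genes were higher and 0 lower, against 28.3% of all genes in either direction, and arrays did not overlap in 24 of 44 (59.8% of all genes). Psmg2 was higher by 1.07 ± 0.25 (adjusted p = 0.0224) and Psmd9 by 1.32 ± 0.37 (adjusted p = 0.0414). Both calls were lost on leaving out any 1 of the 4 arrays, with adjusted p from 0.0737 (without the first control array of day 2.5) to 0.130 (without the second control array of day 2.5) for Psmg2, and from 0.0625 (without the first control array of day 2.5) to 0.242 (without the second control array of day 2.5) for Psmd9. The second probe set of Psmd9 had a difference of -1.18. Core differences were positive in 14 of 14 (median 0.39) and regulatory ones in 16 of 17 (median 0.25), or 12 and 10 after median centring, which moved the median of all genes from 0.09 to -0.11. Under the replicate block, Psmd10 (1.12, adjusted p = 0.0428), Psme1 (1.06, adjusted p = 0.0275) and Psmg4 (1.05, adjusted p = 0.0119) passed as well, for a count of 5 of 46 beside 20.3% of all genes.

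The last step, from released day 3.5 to released day 4.5, gave no call in either particle. Of 46 genes 1 was higher and 0 lower, against 7.37% and 6.37% of all genes (13.7% in either direction). At an unadjusted p under 0.05, 3 of 44 proteasome genes differed, 2 of them lower, against 29.0% of all genes. By limma at an unadjusted p under 0.05, 0 of 14 core and 0 of 17 regulatory genes differed, and with the block neither particle gained a call. Arrays overlapped in all but 15 of 44 proteasome genes, while 60.7% of all genes did not overlap. The gene that rose was Psmb9, from 4.02 and 5.34 to 6.62 and 6.31 (1.78 ± 0.45, adjusted p = 0.0267), the highest values of Psmb9 in the series. The first released array of day 3.5 lay under the level of 5, and with its value set to 5 the difference was at least 1.30. The call was lost without the first released array of day 3.5 (1.13, adjusted p = 0.196), the first released array of day 4.5 (adjusted p = 0.131) or the second released array of day 4.5 (adjusted p = 0.107). Cd74 read 4.87 and 4.37 before and 4.95 and 3.90 after, and the whole immune list 6.83 and 6.64 before and 6.69 and 6.18 after; their part in the result was not tested. Of the other inducible subunits, Psmb10 read 4.57 and 4.22 at released day 4.5 (-0.71 ± 0.26, adjusted p = 0.101) and Psmb8, not tested, 3.33 and 3.39. Psme1 reached its highest levels there, 8.93 and 8.58 (0.50 ± 0.34, adjusted p = 0.366). Blocking on the replicate number, Psme3 (-0.86, adjusted p = 0.0242) and Psmc3ip (-0.99, adjusted p = 0.0245) were lower too, for a count of 3 of 46 beside 21.8% of all genes.

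Between released and undisturbed morulae and blastocysts no proteasome gene passed in limma (0 of 46), against 3.85% of all genes higher and 2.03% lower (5.88% in either direction). At an unadjusted p under 0.05, 4 of 44 differed, 2 in each direction, against 20.8% of all genes, and arrays did not overlap in 21 of 44 (56.0% of all genes). With the replicate number as block 1 passed, Psme3, at 8.51 and 8.73 against 9.35 and 9.61 (-0.86 ± 0.32, adjusted p = 0.150 without and 0.0404 with the block), beside 10.2% of all genes. Median differences were -0.09 in the core and -0.30 in the regulatory particle, whose genes were lower in 16 of 17, and -0.03 over all genes. The intervals allow sizeable differences all the same, for example -1.46 to 0.01 for Psmd7 and -1.12 to 0.04 for Psmb10.

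The day 2.5 to day 3.5 step in controls was compared directly with the step from day 3.5 to day 4.5 after release, which uses other arrays. The difference between the steps passed for 0 genes in the positive and 1 in the negative direction, Psmg2 (-1.81 ± 0.36, adjusted p = 0.0298), against 1.02% and 1.32% of all genes (2.34% in either direction). Psmg2 gained 1.68 in controls and changed by -0.13 ± 0.25 after release, where its levels went from 9.98 and 10.00 to 9.82 and 9.89. The call was lost on leaving out any 1 of the 8 arrays, with adjusted p between 0.0748 (without the first control array of day 2.5) and 0.113 (without the second released array of day 4.5), at differences from -1.90 to -1.73. It was also lost with the mean of the probe sets (-1.31, adjusted p = 0.0665). The difference between steps was negative in 14 of 14 core genes (median -0.50) and 17 of 17 regulatory genes (median -0.62), with a median of -0.13 over all genes. None of these 31 passed in limma. At an unadjusted p under 0.05, 5 of 44 proteasome genes did, against 17.8% of all genes; Psmc6 and Psmd12 were of the regulatory particle and 0 of the core. Median centring moved the median of all genes to 0.04 and left 14 core and 16 regulatory genes negative.

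**Figure D4:**
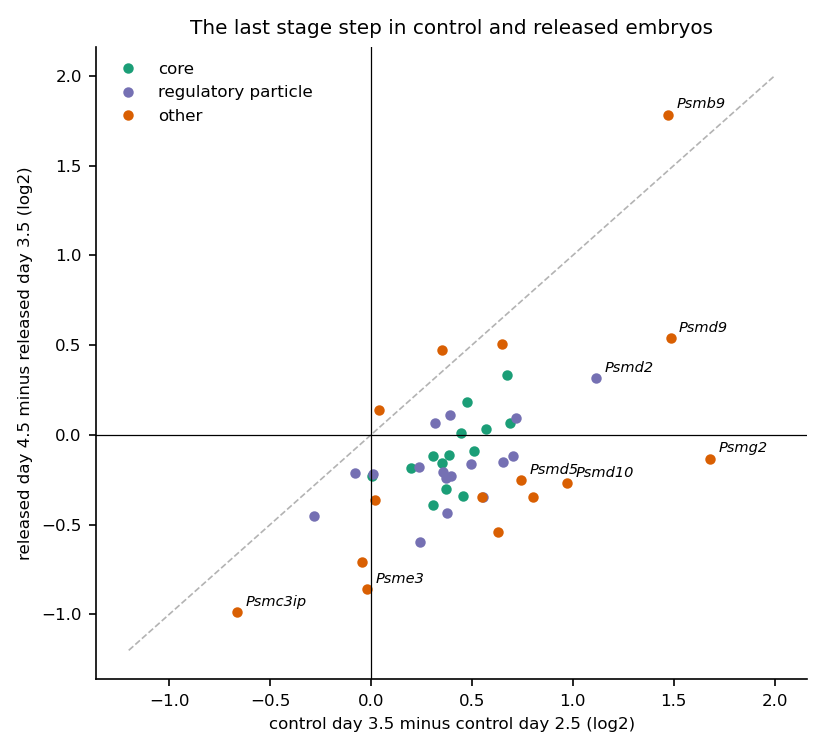
Each point is 1 of the 46 tested genes, with the fitted log2 difference from control day 2.5 to control day 3.5 on the horizontal axis and from released day 3.5 to released day 4.5 on the vertical axis; the dashed line marks equal values and "other" stands for chaperones, activators, the inhibitor, immunoproteasome subunits and the genes that share only the name. Core and regulatory genes all lie under the dashed line, Psmg2 lies farthest below it, at 1.68 and -0.13, and Psmb9 lies above it, at 1.47 and 1.78.

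The mean levels of both particles were lowest at control day 1.5. The mean log2 level of the 14 core genes was 10.01 ± 0.19 (SD, n = 2) at control day 1.5, 11.91 ± 0.07 at control day 2.5, 12.32 ± 0.12 at control day 3.5, 11.67 ± 0.09 under U0126, 12.31 ± 0.06 at released day 3.5 and 12.22 ± 0.14 at released day 4.5. For the 17 regulatory genes it was 9.58 ± 0.33, 11.38 ± 0.27, 11.77 ± 0.23, 11.07 ± 0.33, 11.63 ± 0.17 and 11.46 ± 0.23 in the same order. Means of different probe sets have no common scale, so only the change of core minus regulatory can be read. It was 0.43 at control day 1.5, 0.53 at control day 2.5, 0.55 at control day 3.5, 0.60 under U0126, 0.68 at released day 3.5 and 0.76 at released day 4.5. It thus increased by 0.09 and 0.02 in the control steps, by 0.08 from control to U0126 at day 2.5, by 0.08 on release and by 0.08 in the last released step, and it was larger by 0.15 at released day 3.5 than at control day 2.5 and by 0.21 at released day 4.5 than at control day 3.5. The SD between arrays of a group, pooled over the groups, was 0.16, and it includes an offset, since in each of the 6 groups replicate 1 had the smaller value, such as 0.39 against 0.67 at control day 2.5. Between arrays of the same number, released day 4.5 exceeded control day 3.5 by 0.22 and 0.20 and control day 1.5 by 0.36 and 0.30, and U0126 exceeded control day 2.5 by 0.05 and 0.10. The change on release was 0.17 and -0.02, and that from control day 2.5 to control day 3.5 was 0.09 and -0.04. The increases in group means given for those 2 steps thus had no common sign between replicates. With 2 arrays against 2, an exact permutation test cannot give a p below 0.333, and none is given.

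**Figure D5:**
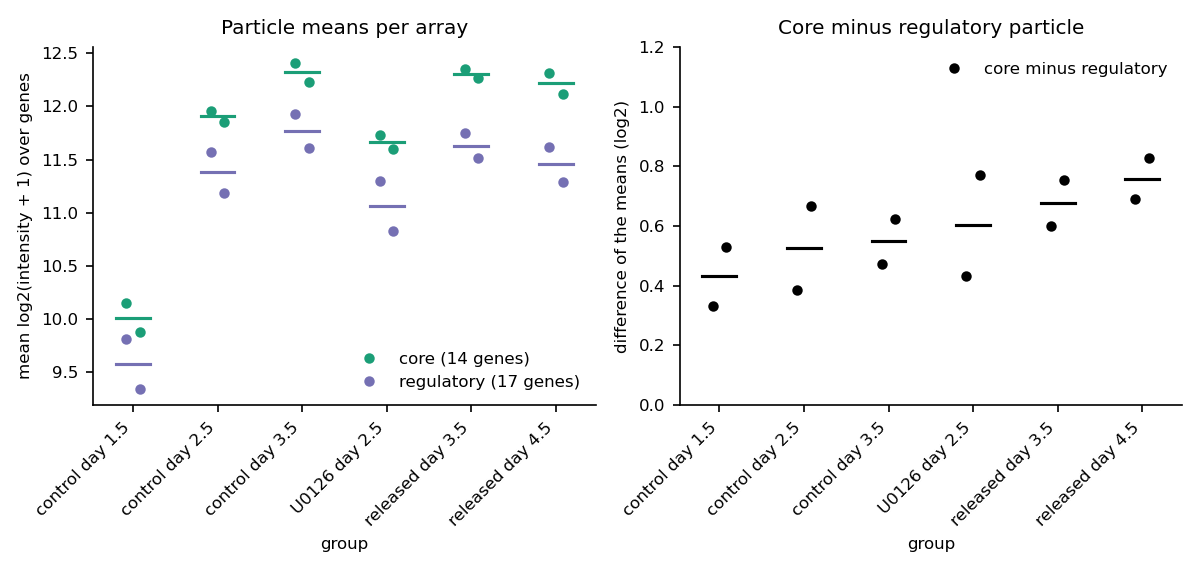
The left panel gives the mean log2(intensity + 1) of the 14 core and 17 regulatory genes on each array (points, 2 per group) with the group mean (bar), and the right panel gives core minus regulatory on the same arrays. Both particles are lowest on the control day 1.5 arrays, and on the right the 2 arrays of a group lie up to 0.34 apart, with replicate 1 lower.

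As single genes, 30 of the 31 particle genes had their lowest group mean at control day 1.5, where 37.5% of all tested genes had theirs. The highest mean was at control day 3.5 for 20 (10.7% of all genes) and at released day 3.5 for 7 (7.59%). Likeness to the common pattern was measured as the Pearson correlation, over the 12 arrays, of a gene with the mean of the other particle genes. The points share arrays and groups, so it is a description. The median was 0.945 over the 31 genes, and 20 of them reached at least 0.9; for all tested genes the median correlation with the particle mean was 0.145. Psmb6 (0.992), Psma1 (0.984) and Psmc1 (0.984) were most alike. The least alike core genes were Psma6 (0.828), Psma2 (0.865) and Psmb7 (0.891), and the least alike regulatory genes were the lid subunits Psmd11 (-0.624), Psmd3 (0.637) and Psmd7 (0.691). Outside the particles the chaperones Psmg4 (0.980) and Psmg2 (0.971) followed the pattern, and Psme4 (-0.960) ran against it.

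Other genes of the ubiquitin pathway, taken as a list of 61 genes of which 51 were tested, moved in both directions. In the first control step 14 were higher and 11 lower, with a median of 0.13, where 28.0% and 27.4% of all genes were called. Higher genes included Pomp (2.16 ± 0.29, adjusted p = 1.15e-04), the maturation factor of the beta ring, Sem1 (2.16 ± 0.35, adjusted p = 4.27e-04), a small lid subunit whose symbol falls outside the rule, and the deubiquitinases Uchl5 (2.30 ± 0.32) and Usp14 (2.06 ± 0.49), which act on the cap. These were picked as examples. Others of the list went down, such as Akirin2, from 13.27 and 13.11 to 12.15 and 11.85, and Ecpas, from 9.23 and 10.28 to 6.45 and 8.32. The largest rises were those of Uba6, a ubiquitin-activating enzyme (3.89 ± 0.45, adjusted p = 3.89e-05), and Ufd1, a cofactor of the segregase Vcp (2.53 ± 0.36, adjusted p = 1.59e-04). The largest falls were those of Ngly1, the deglycosylase that processes the proteasome gene activator Nfe2l1 (-4.35 ± 0.40, adjusted p = 8.46e-06), and Mdm2, the ligase of p53 (-2.70 ± 0.32, adjusted p = 4.36e-05). Nfe2l1 itself fell from 7.67 and 7.95 to 7.08 and 7.07 (-0.73 ± 0.27, adjusted p = 0.0366).

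In the second control step 5 of these 51 were higher and 1 lower (13.4% and 8.28% of all genes), with the largest rises in Fbxw7, a substrate receptor of ubiquitin ligases (1.94 ± 0.32, adjusted p = 0.00264; at least 1.72 counted from a level of 5, since both day 2.5 arrays lay under it), and Nfe2l2, the activator of antioxidant genes (1.49 ± 0.36, adjusted p = 0.0156). The lower one was Anapc7 of the anaphase-promoting complex (-1.04 ± 0.29, adjusted p = 0.0270). The calls for Nfe2l2 and Anapc7 were lost on leaving out any 1 of the 4 arrays (adjusted p from 0.0502 without the second control array of day 3.5 to 0.106 without the first control array of day 3.5, and from 0.0709 without the second control array of day 2.5 to 0.143 without the first control array of day 2.5), and with the mean of their probe sets (0.91, adjusted p = 0.0634, and -0.59, adjusted p = 0.0757). Under U0126 against control day 2.5, Mdm2 was higher (1.43 ± 0.32, adjusted p = 0.0161), at 8.52 and 9.17 against 7.42 and 7.42, and the ubiquitin-conjugating enzyme Ube2r2 lower (-1.16 ± 0.30, adjusted p = 0.0312), with the other 49 not passed (9.21% and 4.72% of all genes). The mean of its probe sets (-0.44, adjusted p = 0.230) or leaving out any 1 of the 4 arrays ended the call of Ube2r2 (adjusted p from 0.0726 without the second U0126 array to 0.157 without the second control array of day 2.5), and that of Mdm2 ended without the first control array of day 2.5 (0.0842), the second control array of day 2.5 (0.0758) or the second U0126 array (0.0736). Between released day 4.5 and control day 3.5, Ube2d3 was the 1 gene called (3.85% of all genes were higher and 2.03% lower), lower on this probe set (-0.96 ± 0.23, adjusted p = 0.0361), whereas the mean of its probe sets gave 0.12; the call was lost on leaving out any 1 of the 4 arrays.

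Against control day 1.5, arrested embryos had 14 of the 51 higher and 10 lower (28.1% and 22.0% of all genes), with the largest rises in Uba6 (3.02 ± 0.45) and Ufd1 (2.39 ± 0.36) and the largest falls in Ngly1 (-3.57 ± 0.40) and the ligase scaffold Cul1 (-1.86 ± 0.27). On release 6 were higher and 4 lower than in arrested embryos (13.7% and 14.5% of all genes). Ube2r2 rose (1.65 ± 0.30, adjusted p = 0.00292) and Anapc7 fell (-1.72 ± 0.29, adjusted p = 0.00181), the latter not with the mean of its probe sets (-0.60, adjusted p = 0.0595). The substrate receptor Btrc (1.68 ± 0.49, adjusted p = 0.0266) and the ligase Ube4b (-0.96 ± 0.28, adjusted p = 0.0288) passed as well, but Btrc did not with the mean of its probe sets (0.58, adjusted p = 0.0778), without the second U0126 array (adjusted p = 0.120) or the first released array of day 3.5 (adjusted p = 0.186), and Ube4b did not without any 1 of the 4 arrays (adjusted p from 0.0785 without the first U0126 array to 0.123 without the second released array of day 3.5). From released day 3.5 to released day 4.5, 3 were higher and 4 lower (7.37% and 6.37% of all genes). Fbxw7 rose by 1.91 ± 0.32 (adjusted p = 0.00475; adjusted p = 0.0567 without the second released array of day 4.5), as it had in the corresponding control step. Ube2r2 (1.43 ± 0.30, adjusted p = 0.0131), Mdm2 (-1.18 ± 0.32, adjusted p = 0.0350) and Zfand5 (-1.10 ± 0.31, adjusted p = 0.0386) also passed, and lost their calls without the first released array of day 3.5 (adjusted p = 0.0954, 0.122 and 0.111) and with the mean of their probe sets (0.76, -0.48 and -0.43, adjusted p = 0.0519, 0.131 and 0.156). Released day 3.5 against control day 2.5 gave Anapc13 higher (1.07 ± 0.29, adjusted p = 0.0358) and Anapc7 lower (-0.99 ± 0.29, adjusted p = 0.0478), both lost on leaving out any 1 of the 4 arrays (8.61% and 4.05% of all genes were called).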

How the data were processed

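The authors' deposited values are linear intensity values per probe set of each array. The submitters' processing notes name GCRMA, and the design text names GeneChip Operating Software 1.2 and GeneSpring 7.3; other steps are not given in the sources used here. Values were taken as log2(intensity + 1), with no further normalization, so fold changes refer to that scale and understate those of low genes. Probe sets with 1 gene symbol in the platform table given with the data were named (34958 of 45101; 932 had several and 9211 none). Genes reaching a level of 5 on 2 or more of the arrays were fitted in limma 3.58.1 (R 4.3.3; lmFit, contrasts.fit, eBayes) with 1 mean per group, all 12 arrays, 6 residual degrees of freedom and a further 4.51 from the eBayes prior. Benjamini-Hochberg adjustment covered all 9930 genes within each of 8 comparisons and 1 interaction, and calls were made at an adjusted p under 0.05. The fit was tested on simulated data, and figures were drawn with matplotlib 3.10.9.

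The members, the lists and the rule for naming genes were chosen with earlier results of these data known. Named were the 3 largest rises and falls per comparison among calls without overlap, the catalytic, inducible and tissue-restricted subunits, ubiquitin receptors, the deubiquitinase, activators, the inhibitor and chaperones, the particle genes most and least like the common pattern, and the 2 largest rises and falls of the pathway list; further members are given as examples. Same-numbered arrays deviated together from their group means (correlations of 0.125 to 0.417, above 0.1 in 15 of 15 pairs of groups), so the replicate number was taken to pair them; the labels do not say what it marks. Alternatives were median centring, quantile normalization, a pseudocount of 16, no filter, a level of 7, the mean of all probe sets, an intensity trend with robust eBayes, the replicate block, only the arrays compared, and each array left out.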

Additional observations from a re-analysis of the deposited data

Results flagged for a closer look

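Psmg2, the chaperone that helps to seed the alpha ring, was flagged because its change over the last stage step differed between released and undisturbed embryos in a direct test of that difference (-1.81 ± 0.36 on the log2 scale, limma adjusted p = 0.0298, n = 2 per group). It rose by 1.68 from control day 2.5 to control day 3.5, on both later arrays, and differed by -0.13 from released day 3.5 to released day 4.5. The call did not hold when any 1 of the 8 arrays was left out, nor with the mean of its probe sets. It was the 1 call among 46 genes (2.17%), a share not above the 2.34% of all genes tested. The 2 steps also started from groups with unlike Cdx2 and Krt8 levels, and the part of that in the result was not tested. At released day 3.5 Psmg2 already stood 1.07 above control day 2.5, and released day 4.5 differed from control day 3.5 by -0.74.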

How the results depend on the processing

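The counts of genes called in the 2 comparisons with control day 1.5 stayed within 1.5 times of their values under every alternative run. The other counts did not. For control day 3.5 minus day 2.5, with 3 called, the count was 7 without the filter, 5 with the intensity trend, 9 with the replicate block and 1 to 3 with single arrays left out. For U0126 minus control day 2.5, with 1 called, it was 0 after median centring and with only these arrays, 2 with a pseudocount of 16, with the mean of probe sets and with the trend, 3 without the filter, 5 with the block and 0 to 1 with single arrays left out. For released day 3.5 minus U0126, with 9 called, it was 5 without the filter, 15 with the trend, 20 with the block, 1 with only these arrays and 2 to 9 with single arrays left out. For released day 3.5 minus control day 2.5, with 2 called, it was 0 after centring and with only these arrays, 1 after quantile normalization, without the filter and with the mean of probe sets, 5 with the block and 0 to 0 with single arrays left out. For released day 4.5 minus day 3.5, with 1 called, it was 0 without the filter, with the level of 7 and with only these arrays, 3 with the block and 0 to 1 with single arrays left out. For released day 4.5 minus control day 3.5 the block gave 1 in place of 0, and the difference between steps went from 1 to 0 with the mean of probe sets and to 0 with any array left out. The replicate block ended no call. Calls among all genes tested moved too. For control day 3.5 minus day 2.5 they were 2148 in the main fit, 1955 with only these arrays and 3102 with the block. In that order U0126 minus control day 2.5 had 1384, 0 and 2061, and released day 3.5 minus U0126 had 2799, 1381 and 3729. Released day 3.5 minus control day 2.5 had 1257, 875 and 2018, and released day 4.5 minus day 3.5 had 1365, 1168 and 2165. The 0 for U0126 was thus not particular to this gene set.

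The mean of all probe sets turned 3 differences: Psme3 in U0126 day 2.5 minus control day 1.5 (from 0.33 to -0.70), and Ube2d3 in released day 4.5 minus released day 3.5 (from -0.93 to 0.084) and minus control day 3.5 (from -0.96 to 0.12). The causes of these changes were not tested. The change of core minus regulatory particle moved by less than its spread between arrays (0.16) in every alternative run. That spread is larger than most of the changes themselves, so this bound does not show them to be stable. With the mean of all probe sets the change in the first control step went from 0.09 to 0.24. In the last released step it went from 0.08 to 0.03. With 2 arrays per group the median standard error of a member's difference was 0.33, and differences well above that size also went uncalled. Examples are 0.86 for Psmd4 in the first control step and -1.13 for Psmd2 under U0126 against control day 2.5. A gene that did not pass is therefore not shown to be unchanged.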
